A study of Mus musculus with 11 samples.

Results

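The genes described are 10 transcription factors that pattern the lung. They were chosen by name from a list and not by a rule on their values, but with earlier results of these data known. They are Nkx2-1, Foxa1, Foxa2, Sox2, Gata6, Irx1 and Irx2, which act chiefly in lung epithelium, and Foxf1, Tbx4 and Tbx5, which act in lung mesenchyme. They make up 10 of the 14351 genes that could be named on the arrays, with 1 probe set each. Tests were run on probe sets that reached a log2 value of 5 on 2 or more of the 11 arrays. On this rule 6 of the 10 were tested, and Nkx2-1, Foxf1, Tbx4 and Tbx5 were too dim.

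The arrays, which give 1 value per probe set in 1 colour, measured lung RNA of Balb/c mice. One genotype was wild type (WT), bought from a supplier. The other (KO) was doubly deficient for Eif4ebp1 and Eif4ebp2 (4ebp1-/-/4ebp2-/-) and was given by another laboratory. Eif4ebp1 and Eif4ebp2 encode 4E-BP1 and 4E-BP2, repressors that occupy the cap-binding protein eIF4E and so limit translation initiation. All mice were switched to the purified diet AIN-93M at 5 weeks of age, and their age at the end is not stated in the labels. There were 3 WT and 3 KO arrays of total RNA, and 2 WT and 3 KO arrays of polysomal RNA. Polysomal RNA was pooled from fractions 7 to 10 of the 10 gradient fractions collected, which hold messages with 3 or more ribosomes. Neither a shared litter nor a separate mouse for each array is stated, so the p-values reflect how these arrays vary, part of which may be technical. As the mice of the 2 genotypes came from different sources, a difference of stock and a difference of genotype cannot be told apart.

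Nkx2-1, Foxa1, Foxa2 and Gata6 are known to bind the promoters of surfactant and secretory protein genes and to keep lung epithelial cells differentiated. Sox2 marks the conducting airways, and the Iroquois homeobox genes Irx1 and Irx2 are expressed in the branching epithelium of the embryo. Foxf1 relays Sonic hedgehog signals in the mesenchyme and is needed for lung capillaries, while Tbx4 and Tbx5 drive lung bud outgrowth through Fgf10. Most of these roles were worked out in embryos, whereas the present samples are lungs of mice past weaning.

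Among the 6 tested factors, Irx1 had the largest difference between genotypes. Irx1 and Irx2 were lower in KO than in WT polysomal RNA. Gata6 was higher in KO than in WT total RNA. Foxa1, Foxa2 and Sox2 passed no test between genotypes. In total RNA 1 of the 6 factors passed (Benjamini-Hochberg adjusted p under 0.05, limma), where 23.2% of the 8085 genes tested did (17.2% higher and 5.97% lower in KO). In polysomal RNA 2 of 6 passed, against 15.1% of genes (8.36% higher and 6.77% lower). For the difference between these differences, the interaction, it was 1 of 6, against 22.3% of genes (8.06% higher and 14.2% lower). With 6 factors these counts lie near the background and say nothing particular about lung factors as a class.

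**Figure D1:**
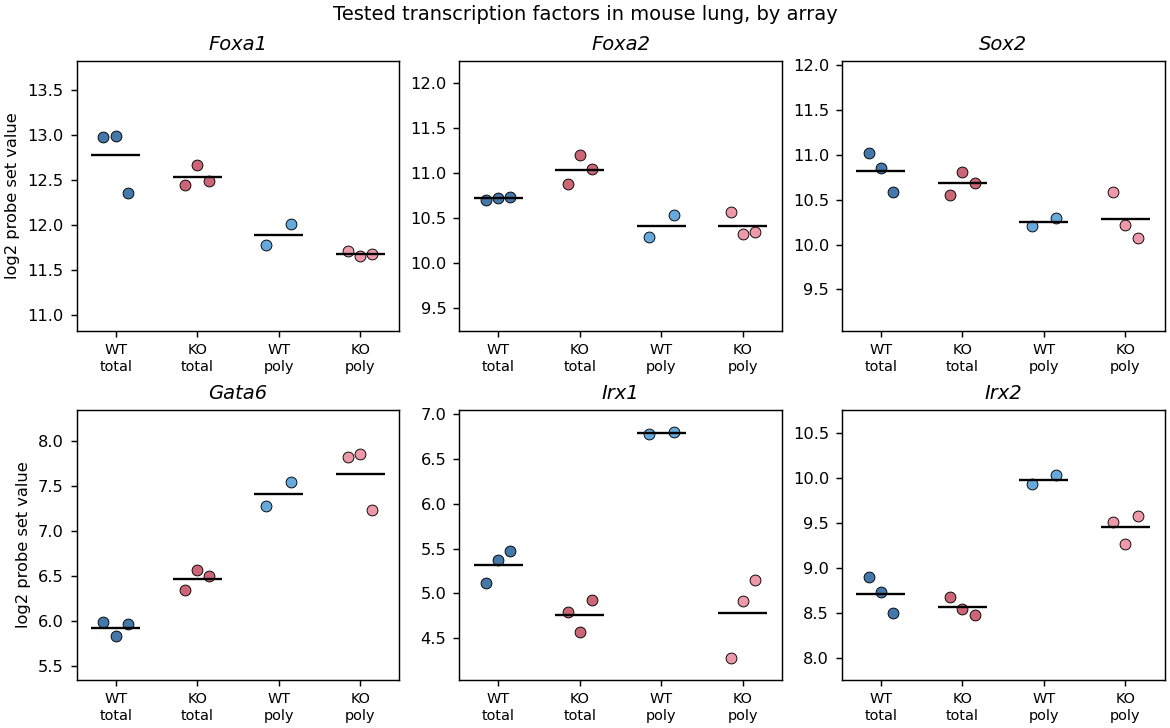
Each point is 1 array and each bar a group mean, with log2 probe set values on the vertical axis, which spans 3 log2 units in every panel. In WT polysomal RNA (WT poly) Irx1 reads 6.78 and 6.79, above its highest KO polysomal value of 5.14.

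Irx1 is a homeobox factor of the TALE class, read by the probe set NM_010573_at. In total RNA its log2 values were 5.11, 5.37 and 5.48 on the WT arrays and 4.79, 4.57 and 4.93 on the KO arrays. Every KO total array was lower than every WT total array, by at least 0.18. The difference of -0.56 (SE 0.20, n = 3 and 3, limma adjusted p = 0.0767) did not pass, and its 95% confidence interval ran from -1.01 to -0.11. It lay close to the threshold and passed in 5 of 20 alternative fits, among them both with the set letter as a block (-0.65, limma adjusted p = 0.0400, and -0.59, limma adjusted p = 0.0383). Within the set letters it was -0.45 in set A and -0.73 in set B.

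In polysomal RNA Irx1 read 6.78 and 6.79 on the WT arrays and 4.29, 4.91 and 5.14 on the KO arrays. The groups were 1.63 apart at their nearest values. Irx1 fell by 2.0045 log2 units in KO polysomal RNA (SE 0.23, n = 2 and 3, limma adjusted p = 0.0011), which is 4.01-fold, with an interval from -2.51 to -1.4982. Only 0.148% of the 8085 genes had a lower difference. The untested probe sets had medians of 2.30 to 2.32 log2 on the KO polysomal arrays, below each Irx1 value there. Their 95th percentiles were 3.90 to 3.94, closer to the lowest Irx1 value of 4.29. Among the KO arrays of both RNA kinds, only the polysomal value of 5.14 reached the filter at 5. Irx1 was thus dim in KO, and the size of its fall is less well measured. Irx1 passed the filter at 5 through WT arrays and 1 KO polysomal array, and a filter at 6 is met by its 2 WT polysomal arrays alone. The difference was present inside each of these set letters, which the labels give without explanation, at -1.86 in set B and -1.65 in set C, each from 1 array a side.

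Irx1 was also the 1 tested factor whose polysomal difference departed from its total RNA difference. The interaction was -1.45 (SE 0.30, limma adjusted p = 0.0117), with an interval from -2.13 to -0.77. In WT, Irx1 was 1.46 higher in polysomal than in total RNA (SE 0.23, limma adjusted p = 2.2e-04). In KO this difference was 0.02 (SE 0.20, limma adjusted p = 0.9444), and the KO polysomal and total arrays overlapped. Across the 8085 genes, the KO value of this difference had a slope of 0.684 on the WT value. How far Irx1 exceeds this general pattern was not tested. As a description, 2.04% of the genes tested had a lower interaction than Irx1.

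Irx2 lies next to Irx1 on chromosome 13, with no protein-coding gene between them in RefSeq, and Irx4 follows. In polysomal RNA Irx2 read 9.94 and 10.03 on the WT arrays and 9.51, 9.26 and 9.59 on the KO arrays, so the groups did not overlap. It fell by 0.53 (SE 0.14, n = 2 and 3, limma adjusted p = 0.0325), which is 1.45-fold. This call did not hold after omission of any of 5 arrays, namely WT polysomal 1 or 2, KO polysomal 1 or 2, or KO total 2, with limma adjusted p between 0.0506 and 0.1527. Within set letters the polysomal difference was -0.68 in set B and -0.45 in set C. In total RNA Irx2 read 8.91, 8.74 and 8.50 in WT and 8.68, 8.55 and 8.48 in KO, and the groups overlapped. That difference was -0.14 (SE 0.13, limma adjusted p = 0.4412), and the interaction was -0.39 (SE 0.19, limma adjusted p = 0.1668), with an interval from -0.81 to 0.03. Irx1 and Irx2 thus passed in the same direction in polysomal RNA, with the fall of Irx1 the larger on the log2 scale.

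None of the other 4 Iroquois genes was called lower in KO. Irx5, which shares a second Iroquois cluster with Irx3 and Irx6, rose by 0.72 in KO total RNA (SE 0.16, limma adjusted p = 0.0117), beside 0.32 in polysomal RNA (SE 0.18, limma adjusted p = 0.2596). For total RNA Irx3 was at 0.53 (SE 0.17, limma adjusted p = 0.0505), beside 0.17 in polysomal RNA (SE 0.19, limma adjusted p = 0.5910). Irx4 (1.89 to 1.99 log2) and Irx6 (1.92 to 2.03 log2) were too dim to test. These 4 genes were looked at after the values of Irx1 and Irx2 were known.

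Markers of ciliated cells, which line the airways, moved with Irx1 and Irx2 in polysomal RNA. Of the 8 markers, Dnaic1, a dynein chain, met the filter through the 2 WT polysomal arrays alone and so had to read lower elsewhere (-1.96, SE 0.25). Of the other 7, 4 fell in KO polysomal RNA, where 6.77% of all genes fell, and none rose. Their median difference was -0.93, against -0.01 over all genes. They were Tekt1 (-1.62, SE 0.33) and Tekt2 (-1.24, SE 0.22), tektins of the axoneme, the cilia regulator Foxj1 (-1.27, SE 0.18) and the cadherin Cdhr3 (-0.93, SE 0.13). Tekt1, outside the rule for named genes, was added after its values were seen, and its call was lost without WT polysomal 1 or 2. The summed level of the 8 markers adds unlogged values, so its brightest gene, Tppp3, weighs most. The sum ran from 14.49 to 14.59 log2 on the WT polysomal arrays and from 14.12 to 14.25 on the KO ones. Tppp3 alone had means of 14.37 and 14.06 there. In total RNA the sum ran the other way, from 11.19 to 11.88 in WT and from 12.17 to 12.53 in KO. Tppp3 had means of 10.55 and 11.93 and was the 1 marker of 8 that rose (1.39, SE 0.23). Of the 8 markers 2 fell, and their median difference was -0.25. Without Dnaic1, 2 of 7 fell and the median was -0.43. Over all genes 5.97% fell and 17.2% rose in total RNA, with a median of 0.085. General epithelial markers had 1 fall among 6 tested in polysomal RNA, Krt18 (-0.60, SE 0.14), a call lost without any of 4 arrays. Their summed level was 15.97 to 15.99 in WT and 15.58 to 15.78 in KO. Club cell, alveolar type 1 and alveolar type 2 markers had no call in polysomal RNA, with 5, 6 and 7 tested. The part of ciliated or other epithelial cells in the Irx1 and Irx2 results was not tested. In whole lung, fewer cells of a type and less RNA per cell cannot be told apart.

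By correlation of log2 values over the 11 arrays, the genes most like Irx1 were Fmod (r = 0.952), which encodes the matrix protein fibromodulin, Spef1l (r = 0.947) and Eno4 (r = 0.938), an enolase of sperm and ciliated cells. Fmod fell from a mean of 9.53 in WT to 8.30 in KO polysomal RNA, with 8.79 and 8.12 in total RNA. For Irx2 they were Cryzl2 (r = 0.982), Nolc1 (r = 0.980), a nucleolar protein, and Gdf10 (r = 0.979), a growth factor of the TGF-beta family. The arrays fall into total and polysomal arrays that stand apart, so these values describe likeness of the group means more than of single lungs.

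Gata6 is a zinc finger factor of lung epithelium and also of smooth muscle and heart. In total RNA it read 5.98, 5.84 and 5.96 log2 on the WT arrays and 6.34, 6.57 and 6.50 on the KO arrays, without overlap. It rose by 0.54 (SE 0.16, n = 3 and 3, limma adjusted p = 0.0387), which is 1.46-fold, with an interval from 0.18 to 0.91. The call did not hold when any 1 of the 6 total RNA arrays was left out, with limma adjusted p between 0.0566 and 0.1257. The difference was 0.43 within set A and 0.57 within set B. In polysomal RNA Gata6 read 7.28 and 7.55 in WT and 7.83, 7.85 and 7.23 in KO, and 1 KO array lay below both WT arrays. That difference was 0.22 (SE 0.18, limma adjusted p = 0.4658), and the interaction was -0.32 (SE 0.24, limma adjusted p = 0.3716). The rise in total RNA therefore was not shown to differ from the value in polysomal RNA.

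Markers of some cell types that use Gata6 also read higher in KO total RNA, where 17.2% of all genes rose. Smooth muscle markers rose in 3 of 5 tested cases and had a summed level of 11.39 to 11.49 log2 in WT and 12.16 to 12.22 in KO. The sum adds unlogged values, and Acta2 (means 11.23 and 11.91) weighs most in it. Heart muscle markers rose in 3 of 6 cases, from 10.76 to 11.56 in WT to 11.54 to 12.09 in KO. Of the heart markers, Myh6, Sln and Ryr2 were too dim to test. Of the cardiac factors, Gata4 lay at 1.98 to 2.11 log2 over all arrays, and Tbx5, described below, was also dim. Endothelial markers rose in 6 of 9 cases. General epithelial markers rose in 1 of 6 cases (median 0.27) and club cell markers in 1 of 5 (median -0.03). Alveolar type 1 markers rose in 2 of 6 (median 0.12) and alveolar type 2 markers in 2 of 7 (median 0.26). The part of these cells in the Gata6 result was not tested. Of the other Gata genes, Gata2 (0.11, SE 0.16) and Gata3 (0.18, SE 0.16) did not pass in total RNA, and Gata1, Gata4 and Gata5 were too dim. The genes most like Gata6 over the 11 arrays were Gipc1 (r = 0.989), Akt1 (r = 0.987) and Tmem14c (r = 0.986).

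Foxa1 and Foxa2 are forkhead factors that open chromatin at lung epithelial genes. Foxa1 read 12.98, 12.99 and 12.35 log2 on the WT total arrays and 12.44, 12.67 and 12.49 on the KO total arrays. WT total 3 lay below all 3 KO arrays while the other WT arrays lay above them. The difference was -0.24 (SE 0.16, limma adjusted p = 0.3242), with an interval from -0.61 to 0.13. Without WT total 3 it was -0.45 and passed (limma adjusted p = 0.0130). Within set A the difference was -0.54 and within set B, which holds WT total 3, it was 0.23. In polysomal RNA Foxa1 read 11.78 and 12.01 in WT and 11.71, 11.66 and 11.67 in KO. The groups did not overlap, but were 0.06 apart and the difference of -0.21 (SE 0.18, limma adjusted p = 0.4905) did not pass. Among all genes, 48.9% had polysomal groups without overlap.

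Foxa2 read 10.70, 10.73 and 10.74 log2 on the WT total arrays and 10.87, 11.20 and 11.04 on the KO total arrays, without overlap. The difference of 0.32 (SE 0.11, limma adjusted p = 0.0725) did not pass, and its interval ran from 0.06 to 0.57. Groups of total RNA arrays did not overlap for 42% of genes. In polysomal RNA the values were 10.29 and 10.54 in WT and 10.57, 10.32 and 10.34 in KO. That difference was -0.00 (SE 0.13, limma adjusted p = 0.9899), with an interval from -0.29 to 0.28, and the interaction was -0.32 (SE 0.17, limma adjusted p = 0.2020). The third family member, Foxa3, was too dim to test at 2.21 to 2.47 log2.

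Sox2, an HMG box factor of airway epithelium, read 11.02, 10.85 and 10.59 on the WT total arrays and 10.55, 10.80 and 10.68 on the KO total arrays. In polysomal RNA it read 10.20 and 10.29 in WT and 10.58, 10.21 and 10.07 in KO. The groups overlapped in both kinds of RNA. For total RNA the difference was -0.14 (SE 0.15, limma adjusted p = 0.5542), beside 0.04 in polysomal RNA (SE 0.17, limma adjusted p = 0.9107). Their intervals, from -0.48 to 0.20 and from -0.34 to 0.42, include 0.

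**Figure D2:**
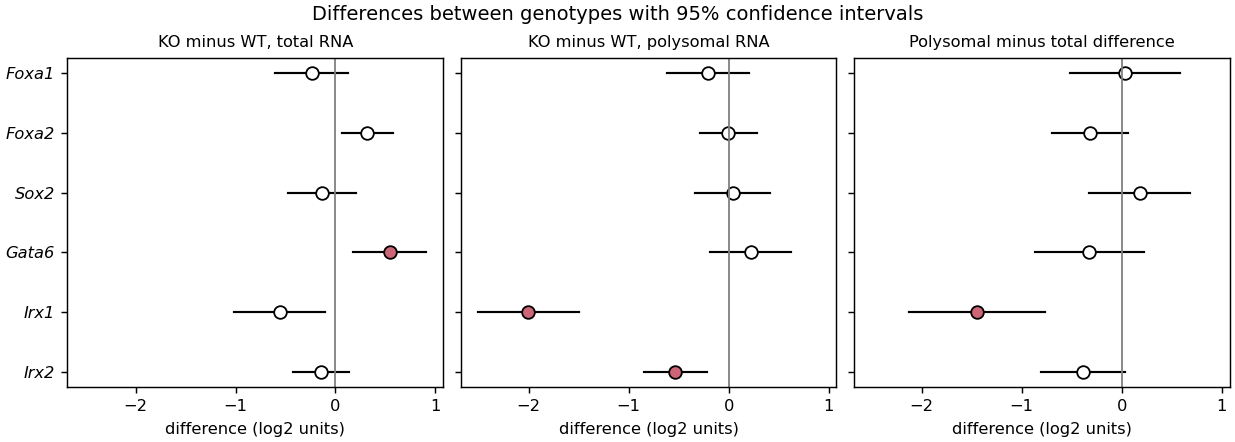
Points are log2 differences from limma with 95% confidence intervals, for KO minus WT in total and in polysomal RNA, and the polysomal minus the total difference. Filled points passed at an adjusted p under 0.05, which are Gata6 in total RNA (0.54), Irx1 (-2.0045) and Irx2 (-0.53) in polysomal RNA, and Irx1 in the interaction (-1.45).

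Within a genotype, the 6 tested factors split by how they stood in polysomal against total RNA. Gata6 and Irx2 were higher in polysomal RNA in both genotypes and Irx1 in WT, whereas Foxa1, Foxa2 and Sox2 were lower in both. In WT all 6 passed, where 72.4% of genes did, and in KO 5 of 6 passed, where 65.2% did. The counts are near that background and are not a result about these factors. As the arrays were normalized to one scale, such a difference is relative to other messages and is not the share of a message on polysomes.

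Gata6 was 1.49 higher in polysomal RNA in WT (SE 0.18, limma adjusted p = 4.2e-05) and 1.17 in KO (SE 0.16, limma adjusted p = 1.4e-04). Irx2 was 1.27 higher in WT (SE 0.14, limma adjusted p = 2e-05) and 0.88 in KO (SE 0.13, limma adjusted p = 1.6e-04). Foxa1 was lower by -0.88 in WT (SE 0.18, limma adjusted p = 0.0015) and by -0.85 in KO (SE 0.16, limma adjusted p = 0.0012). Each of these 3 factors had the same direction in both genotypes.

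The remaining pair was closer to 0. Foxa2 was at -0.31 in WT (SE 0.13, limma adjusted p = 0.0496), which did not hold after omission of any of 7 arrays, and at -0.63 in KO (SE 0.11, limma adjusted p = 7.8e-04). Sox2 was at -0.57 in WT (SE 0.17, limma adjusted p = 0.0119), a call lost without WT polysomal 1. In KO it was at -0.39 (SE 0.15, limma adjusted p = 0.0450), a call lost without any of 8 arrays. The KO polysomal and total arrays overlapped for Sox2, and the difference was 0.03 within set A and -0.53 within set B. Over all genes the median of polysomal minus total RNA was 0.22 in WT and 0.13 in KO. Quantile normalization moved the WT median by -0.164, to 0.059, and turned the direction of none of the 6 factors in these comparisons.

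**Figure D3:**
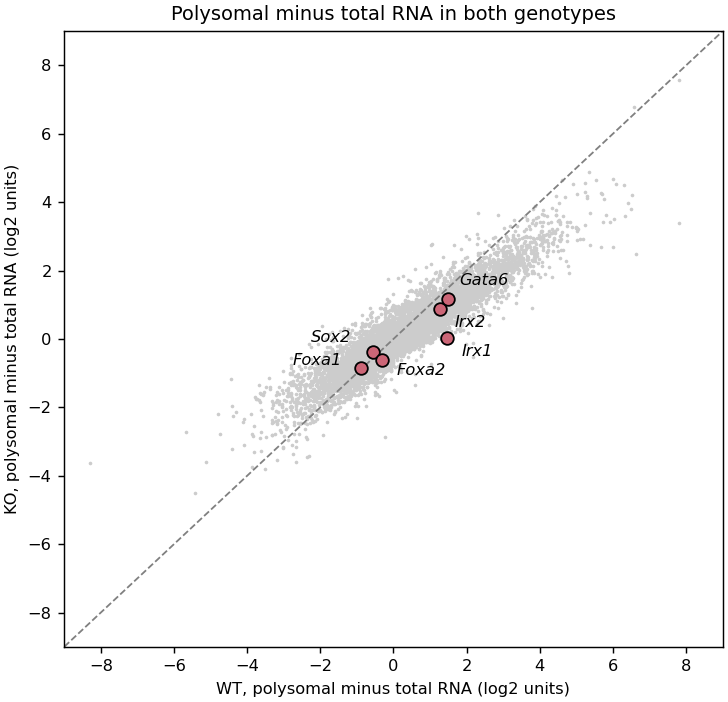
Each grey point is 1 of 8085 genes, with polysomal minus total RNA in WT on the horizontal and in KO on the vertical axis, both in log2 units, and the dashed line marks equal values. Irx1 lies at 1.46 and 0.02, below the line, while Foxa1 (-0.88 and -0.85) lies on it.

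For Foxa1 and Sox2, which were lower together in polysomal RNA, and for Irx2, which fell with Irx1, the 250 bases before the annotated start are shown, as RefSeq gives them for build GRCm38.p6. They are shown so that the regulatory sequence of each gene can be read beside its values. Of the 10 factors 6 had such an entry, in 8 windows. Foxa2, also lower in polysomal RNA in both genotypes, had 3 of these windows, which are not shown. Capitals mark matches, on either strand, to TGTTTAC for FOXA factors, CAAGTG for NKX2-1, AGATAA for GATA factors, ACAAAG for SOX factors, AGGTGT for T-box factors or ACANNTGT for IRX factors.
Foxa1, chr12:57546112-57546361, minus strand: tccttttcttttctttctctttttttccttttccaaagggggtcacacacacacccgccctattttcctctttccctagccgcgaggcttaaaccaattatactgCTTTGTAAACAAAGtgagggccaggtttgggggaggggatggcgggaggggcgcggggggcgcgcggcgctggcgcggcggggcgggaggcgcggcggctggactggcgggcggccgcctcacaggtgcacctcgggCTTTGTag
Sox2, chr3:34649745-34649994, plus strand: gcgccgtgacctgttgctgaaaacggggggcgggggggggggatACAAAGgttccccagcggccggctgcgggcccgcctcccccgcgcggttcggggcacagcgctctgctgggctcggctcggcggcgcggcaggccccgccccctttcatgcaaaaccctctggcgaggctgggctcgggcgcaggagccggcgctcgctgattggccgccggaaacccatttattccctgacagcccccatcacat
Irx2, chr13:72628570-72628819, plus strand: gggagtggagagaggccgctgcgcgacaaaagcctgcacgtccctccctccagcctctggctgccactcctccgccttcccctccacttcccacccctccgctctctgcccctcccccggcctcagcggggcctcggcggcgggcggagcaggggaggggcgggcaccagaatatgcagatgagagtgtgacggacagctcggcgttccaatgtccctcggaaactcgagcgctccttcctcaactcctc

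The Foxa1 window held 1 FOXA match and 3 SOX matches. The FOXA match lies from base -141 to -135 before the start and overlaps a SOX match on each side. Sox2 held 1 SOX match, from base -206 to -201, and Irx2 held none of the 6 motifs. Of the Foxa2 windows, not shown, the third held a GATA match from base -183 to -178 and a SOX match from base -171 to -166. Of 32851 windows of this length 3.17% held the FOXA motif, 16.5% the SOX motif, 11.6% the NKX2-1 motif, 9.99% the GATA motif, 11.8% the T-box motif and 6.31% the IRX motif. A match describes the letters in this window and is not a binding site. The GC content was 62% for Foxa1, 72% for Sox2 and 68.4% for Irx2, against a median of 52.4% over all windows.

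Nkx2-1, the homeobox factor that defines the lung epithelial lineage, was dim on all 11 arrays. It read 1.97, 1.97 and 1.9989 log2 on the WT total arrays, 1.90, 1.88 and 1.91 on the KO total arrays, 1.88 and 1.88 in WT polysomal RNA and 1.86, 1.86 and 1.85 in KO polysomal RNA. All 11 values lie below the median of the untested probe sets on the same array, which was 2.30 to 2.49, so no level of Nkx2-1 RNA can be read from them. In a fit without the filter its total RNA difference of -0.08 (SE 0.02, limma adjusted p = 0.0167) passed, at values that carry no measured level. The floor itself lay at 2.43 to 2.49 on the WT total arrays and at 2.34 to 2.39 on the KO total arrays, a difference of the same direction.

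Some lung epithelial markers, with Sftpc and Scgb1a1 picked outside the rule for named genes, were bright on the same arrays. Surfactant protein C, Sftpc, ran from 13.89 to 16.17 log2, the club cell secretoglobin Scgb1a1 from 16.26 to 16.53, and the alveolar type 1 marker Ager from 14.91 to 15.91. These lung markers were thus bright on every array. Other genes known as targets were dimmer, with lowest values of 9.77 for Cldn18, 9.86 for Muc1 and 10.46 for Aqp5. These values give no level of Nkx2-1, and their relation to it was not tested.

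Foxf1, the forkhead factor of lung mesenchyme, read 2.72 to 3.38 log2 over all 11 arrays. Tbx5 read 2.43 to 2.82. Both lay near the floor and below the filter, and only such a bound is known for them. Without the filter neither passed between genotypes (limma adjusted p from 0.4901 to 0.9934).

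Tbx4, the T-box factor of lung mesenchyme and hindlimb, differed between RNA kinds although it was below the filter. It read 2.26, 2.18 and 2.28 on the WT total arrays and 2.26, 2.26 and 2.22 on the KO total arrays, at the floor. In polysomal RNA it read 4.15 and 3.30 in WT and 3.57, 3.42 and 4.68 in KO, above every total RNA array. The 95th percentiles of the untested probe sets on these arrays were 3.90 to 3.97, above the values of 3.30, 3.57 and 3.42. In the fit without the filter, polysomal minus total RNA was 1.48 in WT (SE 0.37, limma adjusted p = 0.0081) and 1.64 in KO (SE 0.33, limma adjusted p = 0.0048). As the total RNA values lie at the floor, the sizes are not well measured. The WT call is not particular to Tbx4, as most genes passed in that fit in WT. The genotypes overlapped in both RNA kinds, and within set letters the polysomal difference had opposite signs, -0.72 in set B and 1.38 in set C.

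**Figure D4:**
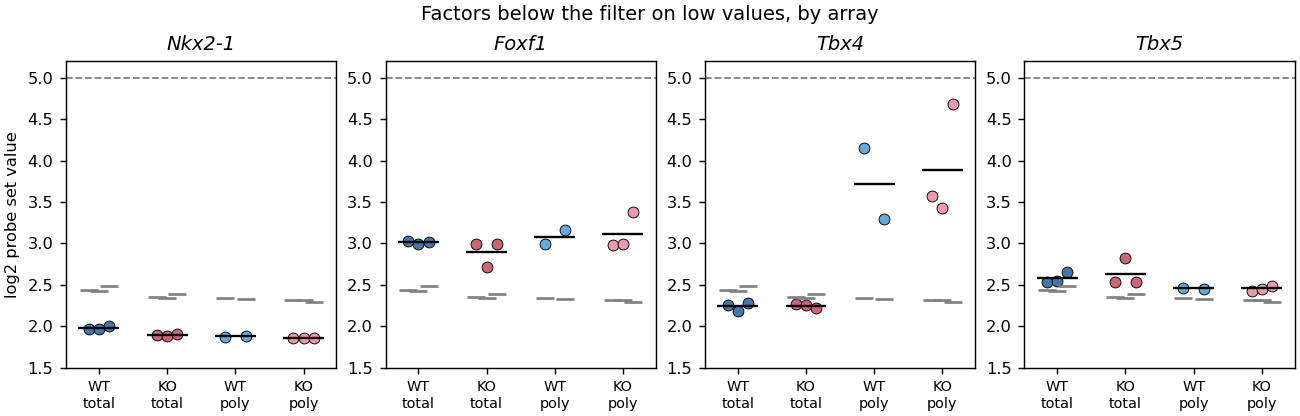
Points are log2 values on each array, black bars group means and grey dashes the median of all untested probe sets on that array, with the filter at 5 as a dashed line. Nkx2-1 lies under the grey dashes on every array, and Tbx4 rises above them on the 5 polysomal arrays, to between 3.30 and 4.68.

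Genes that Nkx2-1, Foxa1, Foxa2 and Gata6 are known to activate in lung epithelium were read from a list of 16, of which 13 were tested. In KO total RNA 6 rose, 1 fell and 6 did not pass, with a median difference of 0.39 against 0.09 over all genes. Over all genes 17.2% rose and 5.97% fell. The aspartic protease of surfactant processing Napsa (1.01, SE 0.12), the mucin Muc1 (0.92, SE 0.12), the secretoglobin Scgb3a1 (0.92, SE 0.13) and the water channel Aqp5 (0.79, SE 0.09) were the 4 with the smallest p. When each array was left out in turn, 4 to 8 of the 13 rose and at most 1 fell. In KO polysomal RNA none of the 13 passed at an adjusted p under 0.05 in limma, with Scgb3a1 nearest at 0.44 (SE 0.15, limma adjusted p = 0.0767) and a median of -0.03. In the interaction 4 were lower and none higher, namely Muc1 (-1.26, SE 0.18), Napsa (-1.20, SE 0.18), Aqp5 (-0.85, SE 0.14) and Sftpd (-0.58, SE 0.14). The Sftpd call was lost without WT polysomal 1. Over all genes 14.2% were lower in the interaction. In WT, polysomal minus total RNA was 4.07 for Muc1, 3.41 for Napsa and 1.78 for Aqp5. Across all genes the KO value of this difference had a slope of 0.684 on the WT value. Genes high in WT polysomal against total RNA thus tended to read lower in the interaction. How far the epithelial targets exceed this general pattern was not tested. Some marker lists of other cell types moved the same way and others did not. Endothelial markers had 6 of 9 higher in total RNA (median 0.78) and 5 of 9 lower in the interaction (median -0.83). Smooth muscle markers had 3 of 5 higher (median 0.70) and 3 of 5 lower (median -0.73). Leukocyte markers went the other way, with 2 of 4 lower and none higher in total RNA (median -0.36). In the interaction 1 of these 4 was higher and none lower (median 0.57), where 8.06% of all genes were higher. The total RNA median was -0.25 for ciliated and -0.03 for club cell markers. In the interaction, ciliated markers other than Dnaic1 had 3 of 7 lower (median -0.90) and club cell markers 1 of 5 (median -0.05). General epithelial markers had 3 of 6 lower (median -0.88) and fibroblast markers 3 of 8 (median -0.59). None of these was higher in the interaction, and no heart muscle marker passed there. The part of a shift shared with other marker lists in the values of the epithelial targets was not tested.

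Of 46 other lung developmental factors, 44 had a probe set and 24 were tested. In total RNA 2 rose, 1 fell and 21 did not pass (median 0.20), where 17.2% of all genes rose and 5.97% fell. Irx5, given above, and the endothelial factor Sox18 (0.94, SE 0.23) rose, and the repressor Foxp2 fell by 0.71 (SE 0.12, limma adjusted p = 0.0044). The Sox18 call was lost without WT total 1 or KO total 2. In polysomal RNA 5 rose, 3 fell and 16 did not pass (median 0.31, against -0.01 over all genes), where 8.36% of all genes rose and 6.77% fell. The endothelial and endodermal factor Sox17 (-0.99, SE 0.09) and Foxj1, given above, fell, while Foxp2 (0.87, SE 0.14, limma adjusted p = 0.0040) and the nuclear factor Nfib (0.58, SE 0.11) rose. The Nfib call was lost without WT polysomal 1. When each array was left out in turn, 1 to 5 rose in total RNA and 2 to 7 in polysomal RNA.

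Foxp2, a forkhead factor of distal lung epithelium, moved in opposite directions in the 2 kinds of RNA. Its group means were 7.94 in WT and 7.23 in KO total RNA, and 5.07 in WT and 5.94 in KO polysomal RNA. The interaction was 1.57 (SE 0.18, limma adjusted p = 0.0023). It is opposite in sign to that of Irx1, and in WT Foxp2 was low in polysomal against total RNA (-2.86) where Irx1 was high (1.46). With the slope of 0.684 over all genes, low genes in WT tended to a positive interaction and high genes to a negative one. How far Foxp2 exceeds this general pattern was not tested.

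Of 41 signalling genes of lung development, 40 had a probe set and 26 were tested. In total RNA 4 rose, 1 fell and 21 did not pass (median 0.11), where 23.2% of all genes passed in either direction. The 4 with the smallest p were the Notch ligand Jag1 (-0.45, SE 0.11), the growth factor Tgfb1 (1.08, SE 0.29), the Hippo effector Wwtr1 (0.45, SE 0.12) and the receptor Notch3 (0.48, SE 0.14). The Jag1 call was lost without KO total 2, and those for the other 3 after omission of any of 4 or 5 arrays, so that the count of rises fell to 0 at the lowest. In polysomal RNA the mesenchymal growth factor Fgf7 (1.18, SE 0.13) and the BMP receptor Bmpr1a (0.63, SE 0.14) rose, Notch3 fell by 0.61 (SE 0.15) and 23 did not pass (median 0.00), where 15.1% of all genes passed. Both counts lie near or below the background. Omission of 2 arrays in turn ended the Bmpr1a call and of 3 the Notch3 call. Fgf10, the growth factor downstream of Tbx4 and Tbx5, and the hedgehog receptor genes Ptch1 and Smo, upstream of Foxf1, were too dim to test.

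**Figure D5:**
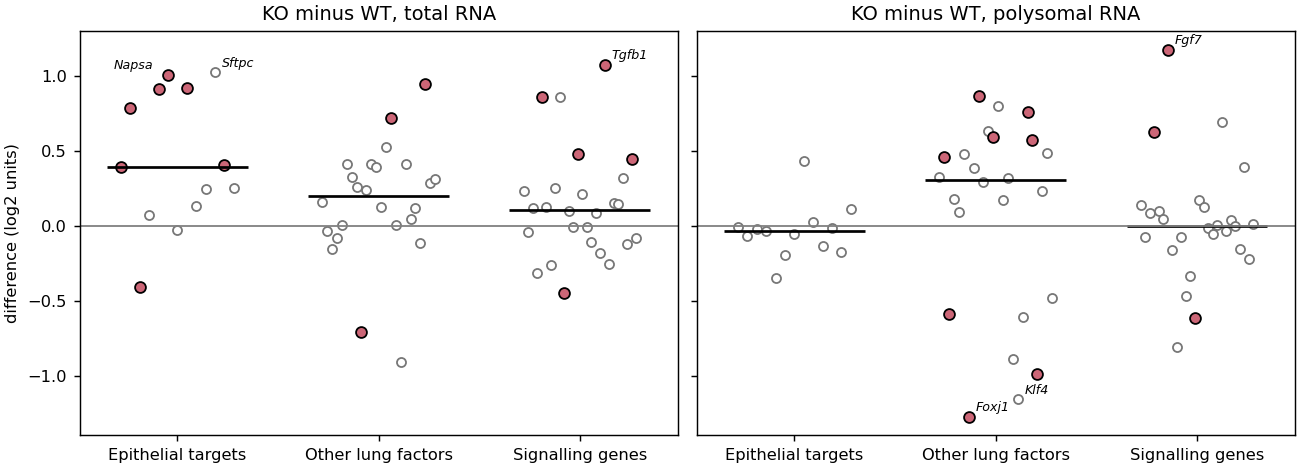
Each point is 1 tested gene of the list of epithelial targets (13), other lung factors (24) or signalling genes (26), with the KO minus WT difference in log2 units on the vertical axis, for total RNA on the left and polysomal RNA on the right. Filled points passed at an adjusted p under 0.05 and bars are medians, which for the epithelial targets were 0.39 in total RNA and -0.03 in polysomal RNA.

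Over the whole array, array medians ran from 4.96 to 5.04 log2. Eif4ebp2, 1 of the 2 deleted genes, was lower on every KO array than on any WT array of the same RNA kind, at -1.90 (SE 0.25, limma adjusted p = 0.0016) in total and -2.07 (SE 0.28, limma adjusted p = 0.0025) in polysomal RNA. Eif4ebp1 was at -0.40 (SE 0.11, limma adjusted p = 0.0328) and -0.67 (SE 0.13, limma adjusted p = 0.0096) but stayed at 7.92 to 7.94 log2 on the KO total arrays. Where its probes lie relative to the deletion is not known here.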

How the data were processed

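Per the submitters' processing notes, the authors made the deposited values with GCRMA, which corrects background, normalizes arrays and summarises probes, with no version stated there. The authors' deposited values are log2, as judged from their range of 0.733 to 16.7, with 1 value for each of 26180 probe sets. Per the labels, 100 ng RNA per sample went through a kit with 2 amplification cycles, which can distort differences between messages. Names came from the RefSeq accession of each probe set in the GRCm38.p6 table. There 15228 probe sets matched 1 gene and 10952 none, and the probe set with the highest mean stood for a gene. Rows that exactly repeat an earlier one numbered 7538.

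With R 4.3.3, limma 3.58.1 was fitted to all 11 arrays, with a mean for each group, for 13802 probe sets (8085 genes), with 7 residual and 2.67 prior degrees of freedom, two-sided tests and Benjamini-Hochberg adjustment over all probe sets tested. The fit was first tested on simulated data. The number of arrays limits the precision. The 10 factors, the 3 gene lists and the marker lists were chosen with earlier results of these data known. All 10 factors are described. From a list, up to 4 genes past 0.05 were named by smallest p, and otherwise the 1 nearest. Genes most like a factor were the 3 of highest Pearson r. Of the marker lists, basal cell markers (4 genes) had none tested. A further marker list is not reported here. Fibroblast markers had 2 rises among 8 tested in total RNA, leukocyte markers 2 falls among 4, and the 1 neuroendocrine marker tested did not pass. Over all genes 17.2% rose and 5.97% fell there. Alternatives were other filters, moderation with a trend, 2 other scalings, removal of repeats, blocks for the set letter, the groups compared alone, and each array left out. Python 3.11.15 and matplotlib 3.10.9 made the figures.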

Additional observations from a re-analysis of the deposited data

Results flagged for a closer look

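The polysomal difference between genotypes minus the total RNA difference for Irx1, -1.45 log2 units (SE 0.30, limma adjusted p = 0.0117), is given for a closer look because the effect of genotype differed between the 2 kinds of RNA by a test of that difference. It passed in all 19 alternative fits, with limma adjusted p from 0.0108 to 0.0402. Groups held 2 or 3 arrays, too few to test for a single array far from the others.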

How the results depend on the processing

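The Irx1 fall in polysomal RNA passed in all 20 alternative fits (limma adjusted p from 9.3e-04 to 0.0233), and its values with an array left out ran from -2.19 to -1.76. The count of factors that passed in total RNA, 1 with all arrays, was 3 with no filter on low values, 2 with quantile normalization and 2 with the groups compared alone, and ran from 0 to 2 with an array left out. In polysomal RNA the count of 2 was 1 with no filter and 1 with the groups compared alone, and ran from 1 to 2 with an array left out. The interaction count was 1 throughout, and the counts for polysomal minus total RNA stayed within 1.5 times, at 4 to 6 in WT and 4 to 5 in KO with an array left out. The cause of these shifts was not tested, except that the fit without the filter holds all 10 factors. Same-letter arrays of different groups had deviations correlated from -0.07 to 0.09 within an RNA kind and from -0.17 to 0.32 across RNA kinds. Arrays of different letters ran from -0.09 to 0.06 and from -0.24 to 0.33. As these ranges were alike, the set letters were not taken to pair arrays. Within an RNA kind the arrays compared differ in genotype, so those values cannot show a shared lung. Across RNA kinds, KO total 2 with KO polysomal 1, KO total 3 with polysomal 2 and KO total 1 with polysomal 3 reached 0.33, 0.32 and 0.32. The other pairs of KO total and KO polysomal arrays ran from -0.24 to -0.07. WT total 2 with WT polysomal 2 reached 0.23, and WT total 3 with WT polysomal 1 reached 0.15. The deviations of the 2 WT polysomal arrays are mirror images, so 1 positive partner for each WT total array was fixed in advance. Pairs of different genotype cannot share a lung. Yet WT total 3 with KO polysomal 1 reached 0.180, and WT total 2 with KO polysomal 3 reached 0.177. Whether total and polysomal arrays of a genotype share a lung is not stated, and no fit was blocked by such pairs. With a replicate block by set letter, Gata6 in total RNA no longer passed (0.54, limma adjusted p = 0.0671) and Irx1 in total RNA did (-0.65, limma adjusted p = 0.0400). With the replicate block within RNA kind these were 0.50 (limma adjusted p = 0.0928) and -0.59 (limma adjusted p = 0.0383), and 776 genes passed in polysomal RNA in place of 1223 and 1178 in the interaction in place of 1803. That block could not be fitted for polysomal minus total RNA.

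Signs turned only for values near 0 that passed nowhere. Foxa2 in polysomal RNA was 0.0052 with quantile normalization, 0.0096 with equal medians and 0.0063 with the set block, and ran from -0.1276 to 0.1217 with an array left out. Sox2 in polysomal RNA was -0.0370 with the set block and -0.1076 with the block within RNA kind, and ran from -0.1076 to 0.1508 with an array left out. The Foxa1 interaction was -0.0838 and -0.0697 with the 2 blocks and ran from -0.0866 to 0.2408. Irx1 in polysomal minus total RNA of KO was -0.0633 with the set block and ran from -0.1646 to 0.2649. Of all genes tested, 4216 passed in total RNA with no filter in place of 1876, 10360 in WT polysomal minus total RNA in place of 5853, and 684 in polysomal RNA with the groups compared alone. With an array left out these counts ran from 964 to 2162 in total and from 619 to 1644 in polysomal RNA. Each factor has 1 probe set, so a comparison of probe sets was not run. The share of genes passing in total RNA that were higher, 74.3%, was 60.6% with quantile normalization. For the WT polysomal minus total comparison Foxa2 missed the threshold in 11 of 19 alternatives.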
